A study of Homo sapiens with 6 samples.

Results

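The 10 genes described here encode the pocket proteins (*RB1*, *RBL1*, *RBL2*), the MuvB core (*LIN9*, *LIN37*, *LIN52*, *LIN54*, *RBBP4*) and the activators B-MYB (*MYBL2*) and FOXM1 (*FOXM1*). They were chosen by symbol from the 23228 gene names of the deposited table, and all 10 were found in it. The table holds RNA-seq of SaOS-2 cells, an osteosarcoma line, in which every group carried the same tetracycline-inducible p21 vector. The p21 OFF group was 3 libraries of untreated cells and the p21 ON group was 3 libraries of cells given 1 μg/ml doxycycline for 24 h. SaOS-2 cells are known to lack functional RB, and a culture that had the drug but not the vector was not analysed here, so effects of the drug and of p21 cannot be told apart. Whether the line is 1 clone is not given in the sources used here.

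Pocket proteins bind E2F transcription factors and hold their target genes off until cyclin-dependent kinases phosphorylate them. p130 or p107, with E2F4 or E2F5, a DP partner and the MuvB core, forms DREAM, the repressor of cell cycle genes in resting cells. When p130 leaves, the same MuvB core takes up B-MYB and then FOXM1, forming MMB-FOXM1, which activates the genes of mitosis. p21 inhibits cyclin-dependent kinases and thereby favours the repressive form. The comparison of p21 ON with p21 OFF shows whether transcripts for the parts of these opposing complexes changed in level.

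The libraries held 12795490 to 21975045 reads on genes, recovered from the normalized counts. p21 OFF replicate 1 stood further from the other p21 OFF libraries (chi-square per gene of 8.50 and 9.26) than these did from each other (3.03), where sampling alone gives about 1. Without that library the same 5 of the 10 genes were called. *CDKN1A*, the gene of p21, rose from 1266 ± 84.5 to 43691 ± 3138 normalized counts (SD, n = 3 each), by 5.11 on the log2 scale; reads from the vector and from the gene itself cannot be told apart in it. Of 8 osteoblast markers, 6 had a mean of at least 10 normalized counts, with *BGLAP* at 0 in every library and *SPP1* at most at 2.96. Their summed level was 53253 to 56151 in p21 OFF and 54315 to 58562 in p21 ON libraries. Most of this sum was *ALPL*, at 35363 to 37346 and 35898 to 38901, so the sum says little of the other markers. The summed level of 4 leukocyte markers was at most 16.3 normalized counts.

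All 10 genes passed the filter of a mean normalized count of at least 10. Transcripts of *FOXM1*, *LIN9*, *MYBL2*, *LIN54* and *RBL2* were lower in p21 ON cells, and none of the 10 was called higher. The call used limma on log2(normalized count + 1) with an adjusted p-value under 0.05 over all 13255 genes tested (Benjamini-Hochberg), and fold changes are on that scale. It found 5 of the 10 genes lower, where 12.7% of all genes tested were called lower and 10.5% higher. At an unadjusted p under 0.05, 7 of the genes were lower and 1 higher, where 19.1% of all genes tested were lower and 17.8% higher. The edgeR and DESeq2 tests on the recovered reads each called the same 5 genes lower and none higher, where they called 13.6% and 11.1% of all genes lower and 9.82% and 7.89% higher. The median log2 fold change of the 10 genes was -0.28, beside 0.0056 for all genes tested. Under scaling by library size alone, 63.0% of all calls were higher, in place of 45.3%, and the 5 genes were still called lower. In bulk RNA a smaller share of cells in the phases that express a gene and less of its RNA per cell cannot be told apart.

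**Figure D1:**
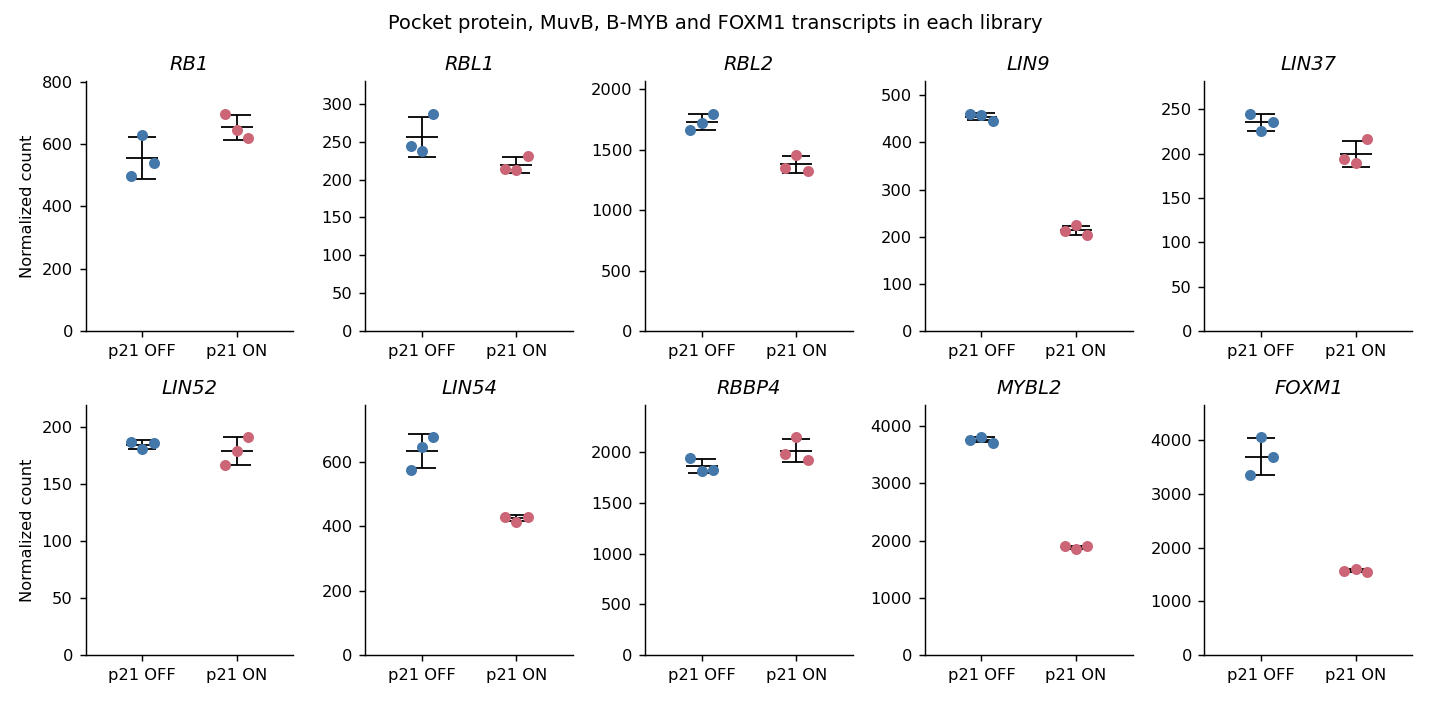
Normalized counts (linear axis from 0) of each of the 10 genes in the 3 p21 OFF (blue) and 3 p21 ON (red) libraries, with the mean and SD in black. For *FOXM1*, *LIN9*, *MYBL2*, *LIN54*, *RBL2*, *LIN37* and *RBL1* all p21 ON libraries lie below all p21 OFF libraries.

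In 7 of the 10 genes every p21 ON library lay below every p21 OFF library, and in none did every p21 ON library lie above, where 21.3% and 19.1% of all genes tested did so. The 7 genes are the 5 called lower, *RBL1* and *LIN37*. With 3 libraries against 3, an exact permutation test of a single gene cannot go below p = 0.1.

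The genes of both activators that join MuvB were lower with p21 ON, *FOXM1* by a fold of 0.43 and *MYBL2* by a fold of 0.50. *FOXM1*, at 2966846 to 2986340 of chromosome 12 (GRCh37, as for all positions by gene here; minus strand), encodes the forkhead factor of G2 and mitosis. It had 3346, 4051 and 3686 normalized counts with p21 OFF and 1569, 1602 and 1545 with p21 ON. The groups lay far apart, and the p21 OFF libraries were the more spread. The means were 3694 ± 353 and 1572 ± 28.7 (SD, n = 3 each). On the log2 scale this was a change of -1.23 (95% interval -1.37 to -1.08, adjusted p = 2.14e-10 by limma). This was the 87th lowest log2 fold change of the 13255 genes tested. An exon of *ITFG2* on the opposite strand overlaps *FOXM1*, and the strand setting of the read counting is not given in the sources used here.

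*MYBL2*, on chromosome 20 from 42295659 to 42345135 on the plus strand, encodes B-MYB, the first activator to join MuvB in S phase. Its normalized counts were 3765, 3805 and 3714 with p21 OFF and 1899, 1845 and 1900 with p21 ON. The groups were far apart and tight, with an SD of 1.22% of the mean with p21 OFF and 1.67% with p21 ON. *MYBL2* changed by -0.9994 on the log2 scale (95% interval -1.12 to -0.88, adjusted p = 2.57e-10 by limma), and 1.16% of all genes tested had as low a value.

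The proportion of *MYBL2* to *FOXM1* transcripts was higher in every p21 ON library than in any p21 OFF library. Within each library, log2 *MYBL2* minus log2 *FOXM1* was 0.17, -0.09 and 0.01 with p21 OFF and 0.27, 0.20 and 0.30 with p21 ON. The mean went from 0.03 ± 0.13 to 0.26 ± 0.05 (SD, n = 3 each), the fall in *FOXM1* being the larger of the pair in these libraries. The exact two-sided permutation p was 0.1, the smallest possible, and 0.117 after adjustment over the 7 pairs compared here. The 5 pairs given later were chosen after their values were seen.

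Of the 5 MuvB core genes 2, *LIN9* and *LIN54*, were called lower and the other 3 were not called. *LIN9*, on chromosome 1 from 226418850 to 226497570 on the minus strand, encodes a scaffold subunit through which B-MYB is held. It had 461, 458 and 446 normalized counts with p21 OFF and 212, 224 and 204 with p21 ON. The groups were separated by a wide gap. Its means were 455 ± 8.02 and 213 ± 10.0 (SD, n = 3 each), and the change was -1.09 on the log2 scale (95% interval -1.27 to -0.91, adjusted p = 1.91e-08 by limma).

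*LIN54*, on chromosome 4 from 83831126 to 83934079 on the minus strand, encodes the subunit that binds the CHR, the DNA element of G2/M promoters. Its normalized counts were 575, 648 and 677 with p21 OFF and 431, 414 and 430.5 with p21 ON. The lowest p21 OFF library still lay well above the highest p21 ON library. On the log2 scale *LIN54* changed by -0.57 (95% interval -0.74 to -0.40, adjusted p = 4.93e-05 by limma), a fold of 0.67.

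*LIN37*, on chromosome 19 from 36239262 to 36245420 on the plus strand, encodes a subunit needed for repression by DREAM. It had 245, 226 and 236 normalized counts with p21 OFF and 194, 189 and 217 with p21 ON. The groups did not overlap, but the nearest libraries were close. Its log2 fold change of -0.24 (95% interval -0.44 to -0.03) did not pass the test (adjusted p = 0.0852 by limma). Its exons overlap those of another gene on the same strand and of a non-coding gene on the opposite strand.

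*LIN52*, on chromosome 14 from 74551659 to 74668196 on the plus strand, encodes the small subunit whose phosphorylation by DYRK1A lets p130 or p107 bind MuvB. Its normalized counts were 187, 180 and 186 with p21 OFF and 166, 179 and 191 with p21 ON. The p21 ON libraries spanned the p21 OFF libraries on both sides. The estimated log2 change was -0.05 (95% interval -0.26 to 0.16, adjusted p = 0.766 by limma), so a fall to a fold below 0.84 or a rise above 1.12 lies outside the interval. *LIN52* had 143 to 252 reads in a library, for which counting error alone is 6.30 to 8.36% of the value.

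*RBBP4*, on chromosome 1 from 33116743 to 33151812 on the plus strand, encodes a histone-binding protein that MuvB shares with other chromatin complexes. It had 1949, 1821 and 1826 normalized counts with p21 OFF and 1980.2, 2148 and 1925 with p21 ON. The groups overlapped, since 1 p21 ON library lay below the highest p21 OFF library. Its log2 fold change was 0.11 (95% interval -0.02 to 0.25, adjusted p = 0.209 by limma). The annotation holds 7 genes named as pseudogenes of *RBBP4*. Reads that match them as well could have been left out or divided in the counting. An exon of *SYNC* on the opposite strand also overlaps it.

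The level of *LIN9* relative to each other MuvB gene was lower in every p21 ON library than in any p21 OFF library. Relative to *LIN52* in the same library, log2 *LIN9* was 1.30 ± 0.04 with p21 OFF and 0.26 ± 0.14 with p21 ON (SD, n = 3 each), a change of -1.04. Relative to *LIN37* the change was -0.85, relative to *RBBP4* it was -1.20, and relative to *LIN54*, which itself fell, it was -0.52. In none of these 4 pairs did the groups overlap (exact two-sided permutation p = 0.1 each, the smallest possible, and 0.117 adjusted over the 7 pairs). The 4 pairs were chosen after their values were seen, which the adjustment does not cover. These p-values therefore describe the pairs and do not test them.

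**Figure D2:**
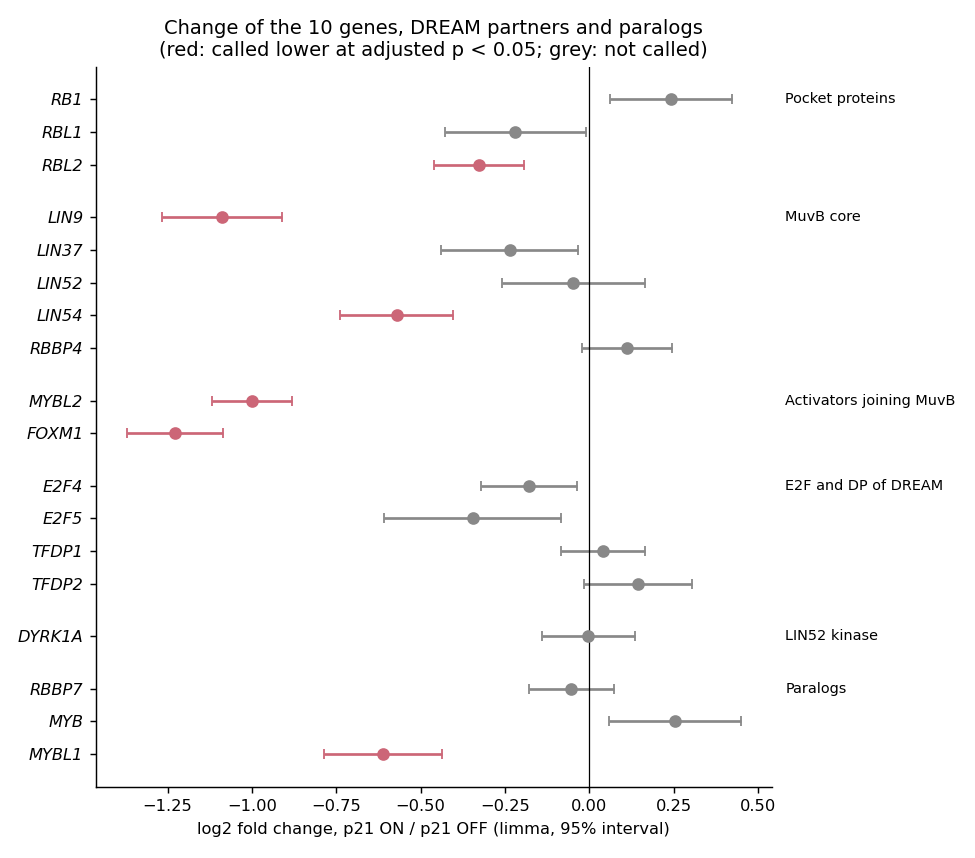
log2 fold change of p21 ON over p21 OFF from limma (points) with its 95% interval (bars) for the 10 genes, the E2F and DP partners of DREAM, the LIN52 kinase gene *DYRK1A* and paralogs. The intervals of *FOXM1*, *LIN9* and *MYBL2* lie below -0.88, and those of *LIN52*, *RBBP4* and *DYRK1A* span 0.

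Of the 3 pocket protein genes only *RBL2* was called. *RBL2*, on chromosome 16 from 53467889 to 53525560 on the plus strand, encodes p130, the usual pocket protein of DREAM. It had 1667, 1720 and 1798 normalized counts with p21 OFF and 1352, 1458 and 1326 with p21 ON. All p21 ON libraries were lower, by a modest margin. *RBL2* changed by -0.33 on the log2 scale (95% interval -0.46 to -0.19, adjusted p = 0.00148 by limma), a fold of 0.80. Exons of *AKTIP* and of an unclassified gene on the opposite strand overlap it.

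*RBL1*, on chromosome 20 from 35624752 to 35724400 on the minus strand, encodes p107, which can take the place of p130. Its normalized counts were 244, 237 and 287 with p21 OFF and 214, 212 and 231 with p21 ON. The groups did not overlap, but 1 p21 OFF library, replicate 3, was the highest by a wide margin. The log2 fold change of -0.22 (95% interval -0.43 to -0.01) did not pass the test (adjusted p = 0.116 by limma), and without p21 OFF replicate 3 it was -0.14. A non-coding gene on the opposite strand overlaps its exons.

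The balance of p107 to p130 transcripts did not differ beyond the spread. Within each library, log2 *RBL1* minus log2 *RBL2* was -2.77, -2.85 and -2.64 with p21 OFF and -2.65, -2.78 and -2.52 with p21 ON. The groups overlapped, and the difference between their means was 0.11 (exact two-sided permutation p = 0.5; 0.5 adjusted over the 7 pairs).

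*RB1*, on chromosome 13 from 48877880 to 49173572 on the plus strand, was transcribed in these cells, although the line is known for a truncated RB that does not work. A count per gene does not show which exons were read. It had 497, 628 and 539 normalized counts with p21 OFF and 697, 645 and 620 with p21 ON. The highest p21 OFF library lay above the lowest p21 ON library. For *RB1* the estimate was a log2 change of 0.24 (95% interval 0.06 to 0.42, adjusted p = 0.0516 by limma), just short of the threshold. It was called higher with library sizes as the only scaling (0.29, adjusted p = 0.0217 by limma) and also without p21 OFF replicate 2 (0.33, adjusted p = 0.0143 by limma).

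Relative to *RBL2* in the same library, log2 *RB1* went from -1.64 ± 0.17 to -1.08 ± 0.11 (SD, n = 3 each) without overlap of the groups. This change of 0.57 had an exact two-sided permutation p of 0.1, the smallest possible (0.117 adjusted over the 7 pairs). The pair was chosen after its values were seen, which the adjustment does not cover, so the p-value does not test it.

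**Figure D3:**
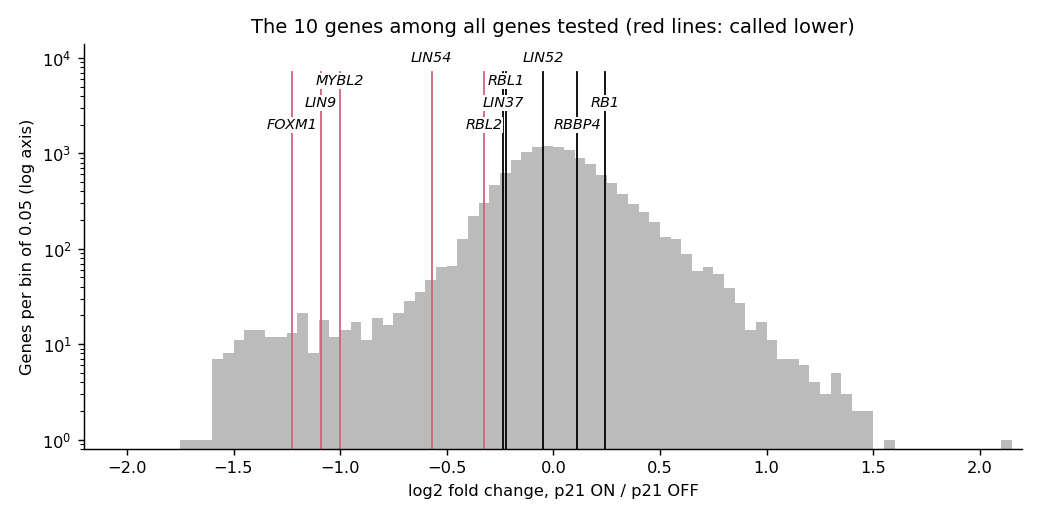
Histogram of the log2 fold changes of the 13255 genes tested (number of genes on a log axis), with a line for each of the 10 genes, red where called lower. *FOXM1*, *LIN9* and *MYBL2* lie in the low tail, at places 87, 127 and 154 from the lowest, and *LIN52* and *RBBP4* lie in the bulk.

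To order the genes by level, normalized counts were divided by the length of the canonical transcript, giving normalized counts per kb. The differences between paired genes within a library, given above, were not divided by length. Their change between the groups can be read, but not which gene of a pair was the higher. With p21 OFF the order from the top was *MYBL2* (1410 ± 17.2), *FOXM1* (1040.1 ± 99.3), *RBL2* (356 ± 13.7), *LIN37* (252 ± 10.2), *RBBP4* (237 ± 9.22), *LIN9* (152 ± 2.68), *RB1* (116 ± 14.0), *LIN54* (104 ± 8.58), *LIN52* (64.2 ± 1.27) and *RBL1* (45.0 ± 4.73; SD, n = 3 each). The libraries of *LIN37* and *RBBP4* overlapped, and so did those of *RB1* and *LIN54*, while all other neighbours were apart. Both activators lay above every MuvB and pocket protein gene. For *RB1* the full canonical length was used, although the counts do not show which of its exons were read. The level of *RB1* per kb, and its place beside its neighbours in both groups, are therefore uncertain. Each other gene was also given a single canonical length, and counts per gene do not show which transcripts were in use. The order among genes is uncertain to that extent, also where the libraries of neighbours were apart.

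With p21 ON, *MYBL2* (705 ± 11.8) and *FOXM1* (443 ± 8.08) were still the highest per kb (SD, n = 3 each). *RBL2* (284 ± 14.5) came next, as with p21 OFF. *LIN9* dropped from place 6 to place 7, with 71.2 ± 3.35 per kb, and its libraries then overlapped those of *LIN54* at 69.5 ± 1.54. *LIN52*, at 62.2 ± 4.27, was close below them, whereas with p21 OFF it had lain far below *LIN9*. *RBL1* was lowest in both groups, at 38.5 ± 1.82 per kb with p21 ON.

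**Figure D4:**
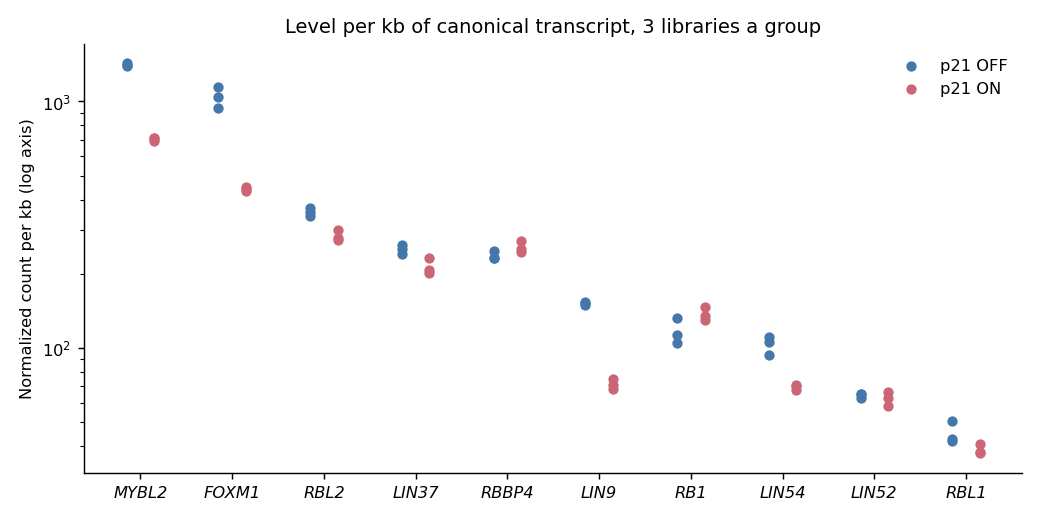
Normalized counts per kb of canonical transcript (log axis) of the 10 genes in the 3 p21 OFF (blue) and 3 p21 ON (red) libraries, ordered by the p21 OFF mean. *MYBL2* and *FOXM1* are highest and *RBL1* lowest in both groups.

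Promoter windows were searched for the words of 3 elements, since some of these genes moved together and DREAM and MMB act through such elements. The RefSeq table used (GRCh38.p14) gives 250 bases before to 50 after each start and had 15 windows for 9 of the 10 genes, all but *FOXM1*. The only *RB1* window was chr13:48476200-48476499, plus strand, and it held none of the words searched. Whether it covers the main start of *RB1* was not checked, so nothing is said here of the main *RB1* promoter. The CHR was searched as TTTGAA or as TTCGAA. The E2F element was searched as TTCCCGC or as TTCGCGC, and further as TTGCCGC or as TTGGCGC. The NF-Y element was searched as CCAAT, and every word on both strands. Of 35116 windows in the table, 16.4% held a CHR word, 13% an E2F word and 34.6% CCAAT. Of the 15 windows here, 5 held a CHR word, 5 an E2F word and 5 CCAAT, and windows of one gene can overlap and share a word, as both *LIN54* windows and both *RBBP4* windows do. A CHR word stood in windows of *RBL2*, *LIN9*, *LIN37* and *LIN54*, of which all but *LIN37* were called lower. An E2F word stood in windows of *RBL1*, *LIN9*, *LIN52* and *RBBP4*, of which *LIN9* alone was called lower. CCAAT stood in windows of *RBL2*, *LIN37*, *LIN52* and *RBBP4*, of which *RBL2* alone was called lower. The *MYBL2* window held none of these words, which says only that these letters are absent from it. That window does hold TTGGCGG, which differs from the searched TTGGCGC in its last letter. Matches are letters and not sites. The shares over all windows are per window, and a gene with several windows has more chances of a match. No share per gene was taken, and a link between words and calls was not tested.

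The stretches shown run 5′ to 3′ from 200 bases before to 30 after the start, with CHR and E2F words in capitals. They are the 3 genes with strong falls that have an entry, and *RBL1*, *LIN52* and *RBBP4*, which carry E2F words and were not called. This choice followed the calls. *LIN37*, with a CHR word and not called, is not shown, and neither is *RBL2*, with a CHR word and called lower. The stretches shown therefore cannot be used to compare the words of called and uncalled genes. *LIN9* has several listed starts: start 3 (GRCh38.p14 chr1:226309135-226309364, minus strand) holds the CHR words and start 1 (chr1:226309474-226309703, minus strand) an E2F word. *LIN54* start 1 is chr4:83010794-83011023, minus strand, *MYBL2* is chr20:43666914-43667143, plus strand, *RBL1* is chr20:37095968-37096197, minus strand, *LIN52* is chr14:74084756-74084985, plus strand and *RBBP4* start 1 is chr1:32651008-32651237, plus strand.
LIN9 start 3: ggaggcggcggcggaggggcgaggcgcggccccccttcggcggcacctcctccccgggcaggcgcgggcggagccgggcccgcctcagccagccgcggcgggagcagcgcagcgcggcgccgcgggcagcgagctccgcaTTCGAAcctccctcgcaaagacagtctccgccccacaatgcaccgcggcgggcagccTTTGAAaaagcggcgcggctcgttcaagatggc
LIN9 start 1: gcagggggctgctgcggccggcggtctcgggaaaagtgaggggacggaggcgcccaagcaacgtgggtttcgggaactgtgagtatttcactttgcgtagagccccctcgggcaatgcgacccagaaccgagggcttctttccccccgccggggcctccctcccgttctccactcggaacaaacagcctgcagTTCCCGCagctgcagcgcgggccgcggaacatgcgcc
LIN54 start 1: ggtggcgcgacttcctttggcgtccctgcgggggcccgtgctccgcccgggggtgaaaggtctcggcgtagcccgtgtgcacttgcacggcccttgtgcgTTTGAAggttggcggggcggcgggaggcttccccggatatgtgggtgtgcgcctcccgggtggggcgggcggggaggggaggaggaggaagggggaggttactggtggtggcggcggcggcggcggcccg
MYBL2: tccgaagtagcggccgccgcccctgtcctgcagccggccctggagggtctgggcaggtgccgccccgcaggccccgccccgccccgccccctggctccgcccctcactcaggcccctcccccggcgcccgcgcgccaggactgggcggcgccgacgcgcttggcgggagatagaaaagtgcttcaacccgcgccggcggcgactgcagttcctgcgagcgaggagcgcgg
RBL1: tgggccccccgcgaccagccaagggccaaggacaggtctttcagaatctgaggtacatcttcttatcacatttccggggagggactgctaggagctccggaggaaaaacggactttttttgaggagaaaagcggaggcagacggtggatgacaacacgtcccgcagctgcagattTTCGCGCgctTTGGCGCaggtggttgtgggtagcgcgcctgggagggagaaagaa
LIN52: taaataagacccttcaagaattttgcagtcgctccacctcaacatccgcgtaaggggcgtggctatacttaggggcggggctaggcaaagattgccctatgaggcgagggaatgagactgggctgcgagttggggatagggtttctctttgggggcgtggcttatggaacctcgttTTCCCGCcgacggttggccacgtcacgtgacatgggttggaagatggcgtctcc
RBBP4 start 1: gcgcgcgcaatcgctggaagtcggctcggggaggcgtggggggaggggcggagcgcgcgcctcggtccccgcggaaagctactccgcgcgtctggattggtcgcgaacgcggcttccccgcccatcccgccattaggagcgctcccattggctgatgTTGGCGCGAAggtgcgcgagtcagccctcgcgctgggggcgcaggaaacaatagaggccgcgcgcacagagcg
In *LIN9* start 3 the word TTTGAA begins 3 bases before the start, and in *LIN54* it lies further upstream. In *RBL1* the E2F words begin 25 and 15 bases before the start, and in *RBBP4* the pair of E2F words overlap each other on opposite strands.

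The partners with which the pocket proteins and MuvB build DREAM were not called. *E2F4*, the main repressor E2F of DREAM, had 1841, 1758 and 1594 normalized counts with p21 OFF and 1547, 1458 and 1576 with p21 ON. The groups did not overlap, and its log2 fold change of -0.18 (95% interval -0.32 to -0.04) did not pass the test (adjusted p = 0.0617 by limma). *E2F5*, its close relative, had a log2 difference of -0.34 (adjusted p = 0.0535 by limma), also without overlap of the groups. The DP partners *TFDP1* and *TFDP2* had values of 0.04 and 0.14 (adjusted p = 0.661 and 0.176 by limma). Of the 4 genes, none was called in either direction at the adjusted threshold by limma.

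The cyclins and kinases that phosphorylate these proteins moved in both directions. Of 10 genes listed, 9 were tested, with *CCND2* at 0 in every library, and 5 were higher and 1 lower, with a median log2 fold change of 0.24. *CCNE2*, a cyclin partner of CDK2 in late G1, had 944, 758 and 795 normalized counts with p21 OFF and 1440.1, 1568 and 1356 with p21 ON, a rise of 0.81 on the log2 scale. *CCND1*, a cyclin partner of CDK4 and CDK6, rose from 101 ± 10.3 to 169 ± 9.15 normalized counts (SD, n = 3 each). *CCNA2*, the cyclin that serves S phase and G2, was lower with p21 ON, at 542 ± 44.9 against 1505 ± 82.8 normalized counts (SD, n = 3 each), or by 1.47 on the log2 scale. *DYRK1A*, the LIN52 kinase, stood at 2092 ± 84.2 with p21 OFF and at 2091 ± 148 with p21 ON (SD, n = 3 each; normalized counts), a log2 difference of -0.0027 (95% interval -0.14 to 0.13, adjusted p = 0.982 by limma).

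The G2/M and G1/S genes were each described by a short list of known targets and by the longer low-stringency list that accompanies the study, drawn from earlier datasets and matched by the same symbol. All 18 listed G2/M targets of MMB and FOXM1 were lower, at a median of -1.38 on the log2 scale and with values from -1.74 for *AURKB*, the mitotic kinase, to -0.42 for *CCNF*. Of the 403 genes tested in the longer G2/M list, 235 were lower and 5 higher, at a median of -0.30. *CDC25C*, the phosphatase that activates CDK1, fell by 1.55 on the log2 scale. Of the 16 listed G1/S targets of E2F, 6 were higher and 4 lower, with a median of 0.04. The longer G1/S list had more genes lower than higher, at 113 against 86 of 520 tested, and a median of 0.0050. *MCM6* and *MCM3*, subunits of the replicative helicase, rose by 0.47 and 0.39, while *RRM2*, a subunit of ribonucleotide reductase, fell by 1.11. In log2 fold change *FOXM1*, *LIN9*, *MYBL2* and *LIN54* lay within the range of the G2/M targets and the other 6 genes above it, while all of the 10 but *FOXM1* lay within the range of the G1/S targets, from -1.11 to 0.47.

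**Figure D5:**
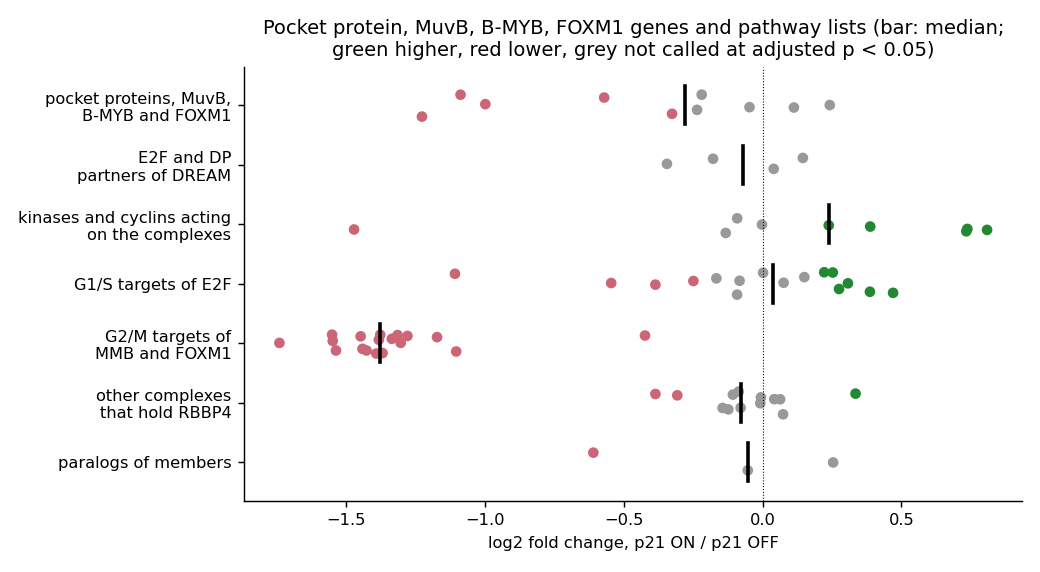
log2 fold change of p21 ON over p21 OFF for each tested gene of the 10 and of 6 pathway lists (points, green called higher, red called lower, grey not called), with the list median as a black bar. All 18 G2/M targets lie to the left of 0, and the other lists straddle it.

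These longer lists hold 7 of the 10 genes. *RBL1*, *LIN52*, *LIN54*, *RBBP4* and *MYBL2* are in the low-stringency G1/S list, and *LIN9* and *FOXM1* in the low-stringency G2/M list, while *RB1*, *RBL2* and *LIN37* are in none. Among the 520 G1/S-listed genes tested, *MYBL2* had the 17th lowest log2 fold change and *LIN54* the 41st, whereas *RBBP4* was at place 361. Among the 403 G2/M-listed genes tested, *FOXM1* was at place 65 from the lowest and *LIN9* at place 85.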

How the data were processed

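RNA-seq of 6 SaOS-2 libraries was analysed, with groups and replicate numbers taken from the sample titles. The authors prepared stranded mRNA libraries, mapped single-end reads to hg19 with STAR, counted them per gene with HTSeq and divided the counts by DESeq2 size factors; the deposited signal is this normalized count, and tool versions are not given in the sources used here. The worth of 1 read was first taken as the lowest value above 0 of each library and then refined on its larger values. Dividing by it gave whole reads for 100% of values (tolerance 0.01 of a read). edgeR 4.0.16 and DESeq2 1.42.0 could therefore be run on these as alternatives. The main test was limma 3.58.1 with a trend in R 4.3.3, without covariates, on log2(normalized count + 1) over genes with a mean of at least 10. The scripts were tested on simulated counts.

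The 10 genes, the pathway lists and the rule for named genes (the 10, CDKN1A, the E2F and DP partners, DYRK1A, paralogs, and in each other list the 2 called genes with the largest change in each direction) were chosen with earlier results of these data known. Some genes that the rule names are not reported here. CCNF is named in addition, as the end of its list's range, and so are CCND2, BGLAP and KRT14, at 0. Also named are SPP1, near 0, ALPL, the highest osteoblast marker, EPCAM, the highest epithelial marker, and VWF and IBSP, the markers called. All of these were chosen after their values were seen. Alternatives were other scalings, pseudocounts of 0.1 and 10, no filter, a minimum of 10 reads in every library, a replicate block and leaving out each library. Same-numbered libraries did not deviate together (correlations of -0.06, -0.02 and -0.05), so the numbers were not taken as pairs. The study's methods call its RNA-seq replicates biological; the labels do not say whether they were separate cultures, and p-values measure the spread between these libraries. Positions, exon overlaps and canonical transcript lengths were read from a GENCODE annotation on GRCh37 (the hg19 assembly), and promoter sequences from RefSeq on GRCh38.p14.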

Additional observations from a re-analysis of the deposited data

How the results depend on the processing

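The log2 fold changes of the 10 genes were refitted under each alternative, and 146 values kept direction and call. RBL2 missed the threshold with no filter on low values (adjusted p = 0.0509 by limma), RB1 was called higher under library-size scaling and without p21 OFF replicate 2, and LIN52 turned to 0.0029 without p21 ON replicate 1 (range -0.10 to 0.0029 with 1 library left out). The called log2 fold changes ranged from -1.30 to -1.16 for FOXM1, -1.12 to -1.04 for LIN9, -1.01 to -0.96 for MYBL2, -0.64 to -0.52 for LIN54 and -0.37 to -0.28 for RBL2.

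With no filter, 254 genes were called higher and 503 lower, 3 kinase and cyclin genes higher and 1 gene of the other RBBP4 complexes lower. Library-size scaling gave 1 of the 10 genes higher, 1 paralog higher, 1 gene of the other RBBP4 complexes lower, and 2034 genes higher and 1194 lower in all. TMM scaling gave 1 E2F or DP partner lower. With 1 library left out, the genes called higher numbered 695 (without p21 ON replicate 1) to 1486 and those called lower 887 (without p21 ON replicate 1) to 1660, with 739 and 1077 without p21 ON replicate 3. Of the 10 genes 0 to 1 were called higher, as were 0 to 1 paralogs (without p21 OFF replicate 1), 0 to 1 E2F or DP partners were lower (without p21 OFF replicate 3), and 1 to 2 genes of the other RBBP4 complexes were lower. The replicate block called 1407 genes higher and 1513 lower and the same 5 of the 10 genes lower; no call among the 10 changed with it. The cause of these shifts was not tested.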

Other observations

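RBBP4 also belongs to chromatin assembly, deacetylase, remodelling and Polycomb complexes, and of 13 genes listed for these, 1 was higher, 2 were lower and 10 were not called by limma, with a median log2 fold change of -0.08. The share called lower was 15.4%, close to the 12.7% of all genes tested, of which 10.5% were called higher. The subunits of chromatin assembly factor CAF-1 went opposite ways. CHAF1A fell from 1665 ± 77.4 to 1273 ± 42.4 normalized counts and CHAF1B rose from 2066 ± 49.6 to 2606 ± 77.0 (SD, n = 3 each), log2 fold changes of -0.39 and 0.33. EED, of the Polycomb complex, fell by 0.31, from 405 ± 50.1 to 326 ± 23.3 (SD, n = 3 each).

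Of the paralogs, MYBL1, which encodes A-MYB, was called lower. It had 618, 616 and 583 normalized counts with p21 OFF and 406, 431 and 355 with p21 ON, a log2 fold change of -0.61 (adjusted p = 4.12e-05 by limma). For MYB the log2 change was 0.25 (adjusted p = 0.0566 by limma). RBBP7, the close relative of RBBP4, had a log2 difference of -0.05 (adjusted p = 0.547 by limma).

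Of the markers of other cell types, VWF was called higher (0.50, adjusted p = 0.0333 by limma) and IBSP, an osteoblast marker, lower (-0.38, adjusted p = 0.0264 by limma). The 3 endothelial markers summed to 62.8 to 69.1 normalized counts with p21 OFF and 73.1 to 104.5 with p21 ON. Most of this sum was VWF, at 51.5 to 55.5 and 62.1 to 90.3. The 4 epithelial markers, with KRT14 at 0, summed to 328 to 398 with p21 OFF and 317 to 357 with p21 ON. Most of that sum was EPCAM, at 301 to 374 and 292 to 325. Both sums therefore say little of the other markers. The part of these markers in the results was not tested.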
